A study of Homo sapiens with 6 samples.

Results

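The clustered protocadherins of chromosome 5 were examined in DMS53 cells, a human small cell lung cancer (SCLC) line of neuroendocrine type, with and without OC2 enforced expression. The genes were chosen by symbol, as every gene named PCDHA, PCDHAC, PCDHB, PCDHGA, PCDHGB or PCDHGC with a number, which gave 54 of the 62696 genes in the count files: 16 of the alpha cluster, 16 of the beta cluster and 22 of the gamma cluster. RNA-Seq counts were available for 6 libraries. The 3 control libraries came from cells carrying the empty lentiviral vector pLenti-C-mGFP-P2A-Puro, and the 3 OC2-OE libraries from cells carrying a lentiviral clone of ONECUT2 (OC2) tagged with mGFP, expressed constitutively. Both groups had gone through transduction and puromycin selection, so the controls carry mGFP and the resistance gene as well. The comparison asks how the protocadherin genes differ in level when OC2, a homeobox transcription factor, is expressed at high level.

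Clustered protocadherins are adhesion molecules of the cell surface, best known from neurons, where they bind their own kind on a neighbouring cell and so give each cell a surface identity. Each gene has a promoter of its own followed by a large variable exon that encodes the extracellular part, the membrane span and the start of the tail. In the alpha and gamma clusters that variable exon is spliced to a common set of small constant exons that encode the rest of the tail, whereas beta genes have no constant exons. Which promoters are active in a cell depends on DNA methylation and on the architectural protein CTCF and the cohesin ring, which bring a chosen promoter to distant enhancers. CTCF binds in most of these promoters at a conserved sequence element whose core reads CGCT.

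The shared exons decide what a gene count means here. In the annotation used for counting (GENCODE release 42, GRCh38), 15 alpha genes share 3 exon blocks of 59, 89 and 2721 bases, at chr5:140978949-140979007, chr5:140982475-140982563 and chr5:141009627-141012347. All 22 gamma genes share 3 blocks of 59, 89 and 2029 bases, at chr5:141494807-141494865, chr5:141505393-141505481 and chr5:141510947-141512975. The counting step did not allow a read pair to be given to several genes, so pairs that lie wholly in these blocks were left out. Some pairs that reach from a variable exon into the blocks may have been left out as well. The counts of alpha and gamma genes thus rest mainly on their own variable exons. The beta genes share no exon with each other. PCDHGB4 and PCDHGA8 share further sequence, which leaves PCDHGB4 2459 bases of its own of 6902, and PCDHA14, a pseudogene inside the span of PCDHA10, has 0 bases of its own and 0 counts in all 6 libraries. PCDHA2 (2626 bases of its own of 6057) and PCDHA3 (4032 of 7463) also share exon bases beyond the constant blocks, as do PCDHA11 and PCDHA12 to a small extent. PCDHB8, PCDHB9, PCDHB14, PCDHB15 and PCDHB16 share some exon bases with genes outside the 54. The read length is not given in the sources used here, and 75 bases was taken in its place. For stretches of that length outside the constant exons (transcripts of GENCODE release 29), the share that also occurs in another gene ranged over the 11 called genes from 0 for PCDHAC1 to 55.6% for PCDHGB4. It was 18.2% for PCDHA2, 16.1% for PCDHA8, 15.3% for PCDHB13, 10.6% for PCDHB2 and 9.26% for PCDHGB1, and from 2.25% to 4.47% for PCDHA1, PCDHA12, PCDHA5 and PCDHB5. Among genes that were not called it was 36.2% for PCDHB8, 20.6% for PCDHA7, 18.1% for PCDHA10 and 12.2% for PCDHA3. Reads that lie within such stretches may be lost or given to a relative, so the counts of the genes with high shares are uncertain, and longer reads would lower these shares and shorter reads raise them.

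The promoters of the genes that the comparison called are shown first, since promoter choice is what sets apart the transcripts of a cluster. RefSeq promoter sequences of GRCh38.p14, each with 250 bases before and 50 bases after the transcription start, were found for 47 of the 54 genes. The string CGCT lay on the gene's strand in the promoter of 46 of the 47 genes, against 54.3% of all 35116 promoters of the table (70.0% with both strands searched). PCDHA9 was the exception. Where a promoter held several copies, the copy nearest to 60 bases before the start was taken, and the copies so chosen lay at a median of 56 bases before the start, with 44 of 46 within 100 bases. For promoters with several copies the rule itself draws the position toward 60 bases. A chosen copy need not be the one in the CTCF element. Windows of 40 bases around the chosen copy follow, 5′ to 3′ on the plus strand, with CGCT in capitals. For the alpha cluster the called genes PCDHA1, PCDHA2, PCDHA5, PCDHA8, PCDHA12 and PCDHAC1 are shown, with the abundant but not called PCDHA4 and PCDHA10 for comparison.
PCDHA1: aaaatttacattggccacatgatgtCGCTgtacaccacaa
PCDHA2: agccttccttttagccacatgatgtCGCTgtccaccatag
PCDHA5: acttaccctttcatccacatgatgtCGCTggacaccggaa
PCDHA8: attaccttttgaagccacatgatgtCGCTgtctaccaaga
PCDHA12: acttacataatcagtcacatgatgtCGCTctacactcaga
PCDHAC1: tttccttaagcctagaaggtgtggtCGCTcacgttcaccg
PCDHA4: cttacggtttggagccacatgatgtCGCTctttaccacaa
PCDHA10: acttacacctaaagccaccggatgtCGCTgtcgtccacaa
These windows lie at chr5:140786077-140786116 for PCDHA1, chr5:140794772-140794811 for PCDHA2, chr5:140821533-140821572 for PCDHA5, chr5:140841121-140841160 for PCDHA8, chr5:140875235-140875274 for PCDHA12, chr5:140926211-140926250 for PCDHAC1, chr5:140806970-140807009 for PCDHA4 and chr5:140855832-140855871 for PCDHA10. The 10 bases that most alpha promoters share, ATGATGTCGC, occur in 8 of 13 alpha promoters and in 10 of all 35116 (0.0285%; 0.0313% with both strands searched). They overlap the first bases of CGCT. The string is present in PCDHA1 and PCDHA2, which rose, and in PCDHA5, PCDHA8 and PCDHA12, which fell.

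For the beta cluster the called genes PCDHB2, PCDHB5 and PCDHB13 are shown with PCDHB4, which was not called.
PCDHB2: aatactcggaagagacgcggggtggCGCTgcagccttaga
PCDHB5: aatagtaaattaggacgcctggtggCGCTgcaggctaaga
PCDHB13: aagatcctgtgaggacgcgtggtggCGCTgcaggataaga
PCDHB4: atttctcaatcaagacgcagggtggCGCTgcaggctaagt
These windows lie at chr5:141094535-141094574 for PCDHB2, chr5:141135170-141135209 for PCDHB5, chr5:141213856-141213895 for PCDHB13 and chr5:141121714-141121753 for PCDHB4. The most shared 10 bases of the beta promoters, GGTGGCGCTG, contain CGCT and occur in 12 of 14 beta promoters and in 0.179% of all promoters (0.276% with both strands searched). For the gamma cluster the called genes PCDHGB1 and PCDHGB4 are shown with PCDHGA11, which was not called.
PCDHGB1: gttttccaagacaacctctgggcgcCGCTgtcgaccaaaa
PCDHGB4: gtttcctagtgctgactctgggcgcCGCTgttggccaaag
PCDHGA11: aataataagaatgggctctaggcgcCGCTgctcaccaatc
These windows lie at chr5:141350016-141350055 for PCDHGB1, chr5:141387608-141387647 for PCDHGB4 and chr5:141420963-141421002 for PCDHGA11. The most shared 10 bases of the gamma promoters, GCGCCGCTGT, contain CGCT and occur in 9 of 20 gamma promoters and in 0.0797% of all promoters (0.131% with both strands searched). The longer core CGCTGT was present in 17 of 20 gamma, 6 of 13 alpha and 1 of 14 beta promoters, against 5.95% of all promoters (11.2% with both strands searched). CGCT was found in the promoters of all 11 called genes and of 21 of the 22 tested genes that were not called and have a promoter in the table, so the string did not separate them. Over windows of 40 bases aligned on the chosen CGCT, pairs of genes from the same cluster had a median of 23 (alpha), 26 (beta) and 22 (gamma) identical positions, and pairs from different clusters 18. The strings were chosen after the sequences had been seen, and a match is a description of the letters only.

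The libraries held between 16533284 and 19099337 counts. ONECUT2 itself was at 465, 412 and 394 counts with the empty vector and at 74031, 68853 and 72763 counts with OC2, in accord with the labels. All 8 neuroendocrine markers examined were detected in every library, 3 called higher and 4 lower in OC2-OE, with a summed level of 3070 to 3140 CPM (counts scaled to library size) in control and 4520 to 4570 CPM in OC2-OE. SCG2, UCHL1 and CHGA were the 3 higher, and INSM1, NCAM1, SYP and CHGB the 4 lower. The median log2 fold change of the list was -0.11, and the sum was carried by SCG2 (801 to 2273 CPM) and UCHL1 (1077 to 1430 CPM). Of 5 immune markers 2 were tested and both, LYZ and CD14, were higher, with sums of 3.64 to 4.36 CPM and 7.27 to 9 CPM, while CD3E was at 0 counts and PTPRC at 0 to 1 counts per library. Of 4 endothelial markers 3 were tested and 2, KDR and CDH5, were lower, with sums of 12.7 to 15 CPM and 4.17 to 4.73 CPM, mostly KDR (10.6 to 1.55 CPM), while PECAM1 was not called (0.02) and VWF, not tested, had 0, 1 and 0 counts in control and 6, 5 and 6 in OC2-OE. Of 6 fibroblast markers 3 were tested and 2, COL1A1 and PDGFRB, were higher, with sums of 21.2 to 23.9 CPM and 28.1 to 32.1 CPM. The part of these markers in the results was not tested. Of the 62696 genes, 17307 passed the filter on low counts, and edgeR's quasi-likelihood test called 9776 of them at an adjusted p under 0.001, which is 56.5%. The genes called higher in OC2-OE were 27.8% of those tested and the genes called lower 28.7%, and the counts of the control and OC2-OE libraries did not overlap, on the CPM scale, for 73.2%.

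Of the 54 clustered protocadherins, 37 passed the filter (15 alpha, 11 beta and 11 gamma) and 11 were called. The called share was 29.7%, below the 56.5% of all genes tested. In OC2-OE 4 genes were higher (10.8%, against 27.8% of all genes) and 7 were lower (18.9%, against 28.7%), and 26 did not pass the test. The groups did not overlap for 20 of the 37 genes (54.1%, against 73.2%), 5 of them higher and 15 lower in OC2-OE. The tested protocadherins had a median of 250 summed counts over the 6 libraries against 2133 for all genes tested, and a median standard error of the log2 fold change of 0.212 against 0.0748; the part of this lower depth in the lower share was not tested. The median absolute log2 fold change was 0.41 for the tested protocadherins and 0.38 for all genes tested. With the sign kept, the median log2 fold change was -0.23 over the 37 genes, and -0.21, -0.46 and -0.34 over the tested alpha, beta and gamma genes, beside 0.01 over all genes tested. A fold change below 0 was found for 25 of the 37 and above 0 for 12.

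**Figure D1:**
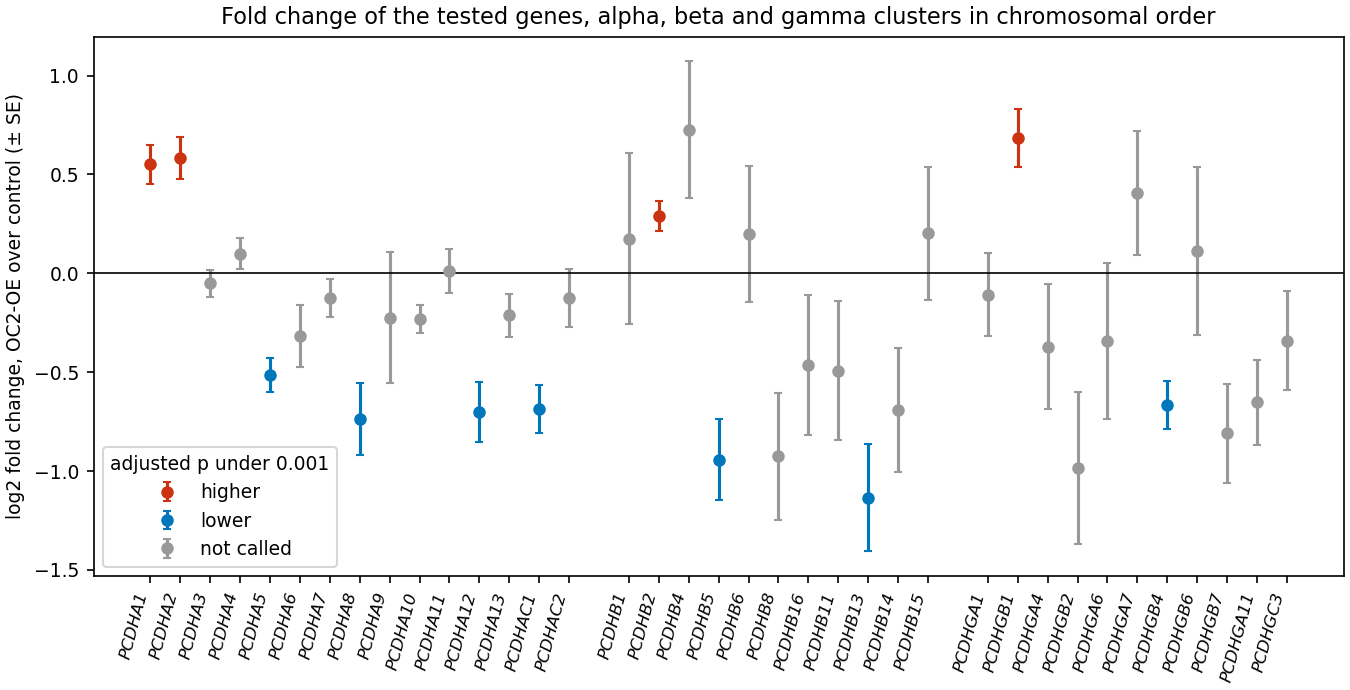
Log2 fold change of OC2-OE over control with its standard error for the 37 tested genes, in chromosomal order within the alpha, beta and gamma clusters. Red points are the 4 genes called higher, blue points the 7 called lower and grey points the 26 not called; among called genes the largest rise was 0.69 (PCDHGB1) and the largest fall -1.14 (PCDHB13), and PCDHB4, not called, was at 0.73.

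As whole clusters, the protocadherins were carried mainly by alpha. The alpha genes held between 71.2% and 73.1% of all protocadherin counts in each library, the beta genes 13.4% to 16.4% and the gamma genes 11.6% to 14.2%. The summed alpha level was 157, 155 and 160 CPM in control and 142, 149 and 146 CPM in OC2-OE. All 3 OC2-OE libraries were below all 3 controls, and the mean went from 157.2 ± 2.88 to 145.8 ± 3.31 CPM (SD, n = 3), a change of -7.3%. The summed beta level was 28.9, 31.7 and 34.4 CPM in control and 32.7, 29.8 and 30.6 CPM in OC2-OE, so the groups overlapped, with a change of -1.92% that was smaller than the spread between libraries, and its log2 ratio ran from -0.09 without control replicate 1 to 0.03 without control replicate 3. The summed gamma level was 30.6, 28.9 and 28.7 CPM in control and 24.9, 25.4 and 23.1 CPM in OC2-OE. Again all 3 OC2-OE libraries were below the controls, and the mean went from 29.4 ± 1.06 to 24.5 ± 1.21 CPM, a change of -16.7%. When libraries were scaled by their total alone, the log2 ratio of the alpha sum was -0.06 in place of -0.11 and that of gamma -0.21 in place of -0.26, and that of beta was 0.02 in place of -0.03. Fewer cells expressing a gene and less RNA per cell cannot be told apart in these bulk libraries, which holds for every gene below.

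**Figure D2:**
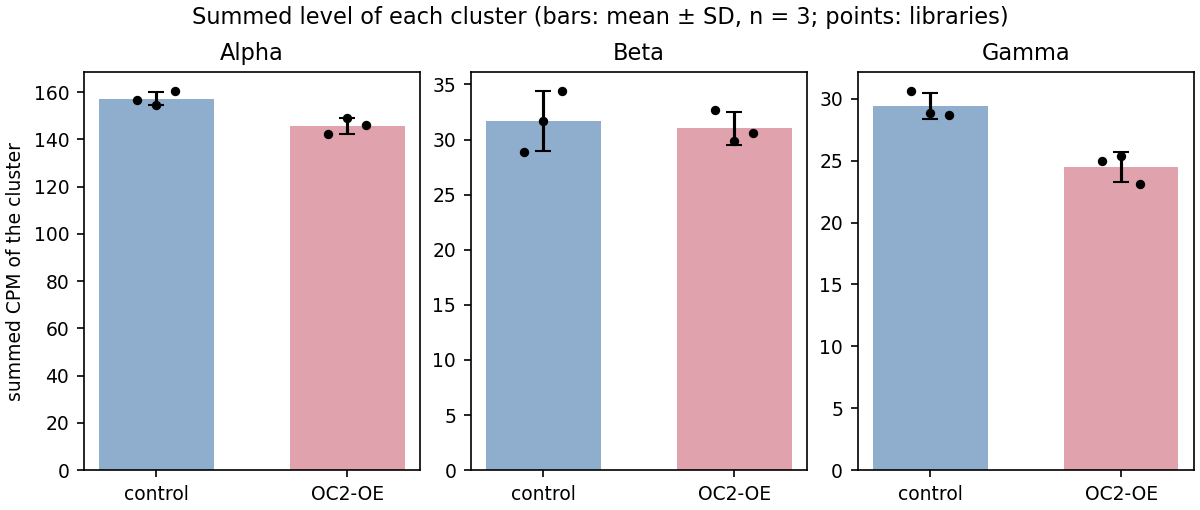
Summed CPM of the alpha, beta and gamma genes, with bars for the mean, error bars for the SD (n = 3) and a point for each library. The OC2-OE libraries lie below all controls for alpha (142 to 149 against 155 to 160 CPM) and gamma (23.1 to 25.4 against 28.7 to 30.6 CPM), and among the controls for beta.

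Within the alpha cluster, the pair of genes nearest to the start of the cluster rose and 4 genes farther along fell. PCDHA1 was at 9.15, 8.61 and 7.93 CPM in control and at 13.1, 12.1 and 12.5 CPM in OC2-OE. The lowest OC2-OE library was above the highest control. PCDHA1 was called higher with a log2 fold change of 0.55 ± 0.10 (SE, adjusted p = 4.4e-07, edgeR), on 444 summed counts in control and 689 in OC2-OE. PCDHA2, the next gene along, was at 7.71, 6.81 and 7.50 CPM in control and at 10.3, 10.9 and 11.9 CPM in OC2-OE, again with no overlap, and was called with 0.58 ± 0.11 (adjusted p = 7.7e-07, edgeR). Together both genes made up 10.8%, 9.97% and 9.62% of alpha counts in control and 16.5%, 15.4% and 16.7% in OC2-OE. These shares do not depend on how libraries are scaled against each other.

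PCDHA5 was the alpha gene with the largest fall in CPM. It was at 16.9, 16.8 and 18.7 CPM in control and at 12.1, 13.3 and 11.3 CPM in OC2-OE, with a log2 fold change of -0.52 ± 0.09 (SE, adjusted p = 5.3e-08, edgeR). All OC2-OE libraries lay below the controls. PCDHA12 went from 5.46, 5.68 and 5.72 CPM to 3.39, 3.29 and 3.68 CPM, and its log2 fold change was -0.70 ± 0.15 (adjusted p = 2.2e-05, edgeR). The SD was 0.14 CPM among the controls and 0.20 CPM among the OC2-OE libraries, and the groups were well apart. PCDHAC1, one of the C-type genes at the far end of the cluster, which are set apart from the numbered genes by sequence, went from 9.21, 8.19 and 8.30 CPM to 5.64, 4.79 and 5.54 CPM, with -0.69 ± 0.12 (adjusted p = 3.9e-07, edgeR). PCDHAC2, the other C-type gene, was at 5.30, 5.92 and 4.31 CPM in control and at 4.91, 4.56 and 4.78 CPM in OC2-OE. These values overlapped, and PCDHAC2 was not called (-0.13 ± 0.14, adjusted p = 0.44, edgeR); the difference between the fold changes of PCDHAC1 and PCDHAC2 was not tested.

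PCDHA8 was the weakest of the alpha calls. It was at 4.66, 3.05 and 4.49 CPM in control and at 2.61, 2.19 and 2.53 CPM in OC2-OE. The groups did not overlap, although control replicate 2 lay closer to the OC2-OE libraries than to the other controls. Its log2 fold change was -0.73 ± 0.18 (SE, adjusted p = 0.00019, edgeR), and the call was lost with DESeq2 (adjusted p = 0.0044), with limma voom (adjusted p = 0.0012) and without control replicate 1 or 3 or OC2-OE replicate 2 or 3 (adjusted p = 0.0013 to 0.0054, edgeR).

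PCDHA3, PCDHA10 and PCDHA4, the alpha genes with the highest mean CPM over all 6 libraries, did not pass the test. PCDHA3 was at 25.2, 22.5 and 26.0 CPM in control and at 22.2, 24.9 and 24.2 CPM in OC2-OE. The groups overlapped, and its log2 fold change was -0.05 ± 0.07 (SE, adjusted p = 0.51, edgeR), which changed sign to 0.00 without OC2-OE replicate 1. PCDHA10 was at 23.2, 26.1 and 23.2 CPM in control and at 20.7, 22.6 and 18.4 CPM in OC2-OE. Its groups did not overlap, but -0.23 ± 0.07 gave an adjusted p of 0.0026 (edgeR), which missed the threshold. Without OC2-OE replicate 2 it passed (-0.30, adjusted p = 0.00057), and without OC2-OE replicate 3 or control replicate 2 it was further from it (-0.15, adjusted p = 0.080, and -0.17, adjusted p = 0.047, edgeR). PCDHA4, which lies between PCDHA3 and PCDHA5, was at 16, 16.8 and 17.96 CPM in control and at 17.2, 16.9 and 20.3 CPM in OC2-OE. These groups overlapped as well (0.10 ± 0.08, adjusted p = 0.26, edgeR), and without OC2-OE replicate 3 the value was 0.02 (adjusted p = 0.87).

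The remaining alpha genes did not pass the test. PCDHA7 was at 11.1, 11 and 11.9 CPM in control and at 10.6, 10.6 and 9.99 CPM in OC2-OE, and PCDHA11 at 8.19, 8.25 and 8.49 CPM and at 7.52, 9.12 and 8.56 CPM. Neither was called. PCDHA13 was at 8.62, 8.79 and 10.5 CPM in control and at 8.35, 8.02 and 7.57 CPM in OC2-OE, without overlap but with an adjusted p of 0.076 (edgeR). PCDHA6 was at 4.92, 5.14 and 4.49 CPM in control and at 3.24, 4.62 and 3.90 CPM in OC2-OE, and was not called. PCDHA9, the only gene with a listed promoter that lacked CGCT, had the fewest counts of the tested alpha genes, with 52 in control and 47 in OC2-OE. Along the chromosome from PCDHA1 to PCDHA13, the log2 fold change and the order of the genes had a Spearman correlation of -0.527 over 13 genes, which share the same 6 libraries and are not independent. This correlation was not planned, and it includes the rise of PCDHA1 and PCDHA2 described above. The change was not graded along the order, with PCDHA5 at -0.52 and PCDHA11, farther along, at 0.01.

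**Figure D3:**
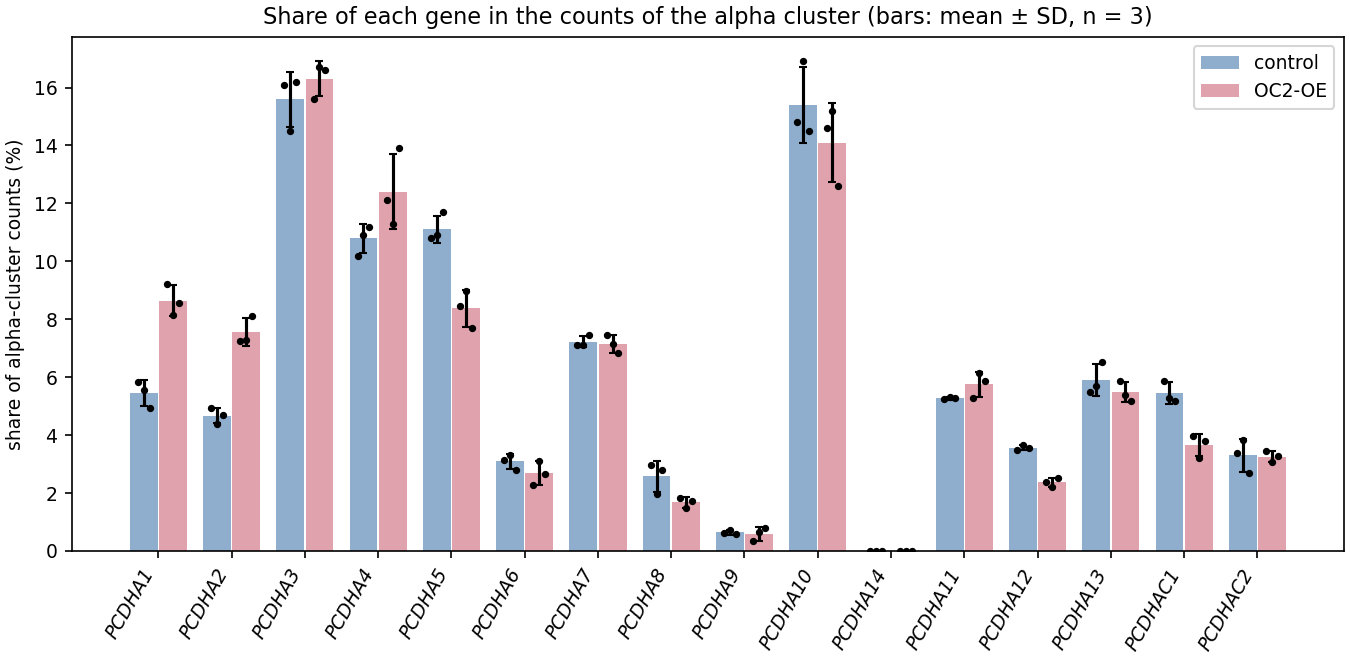
Share of each alpha gene in the counts of the alpha cluster, with bars for the mean, error bars for the SD (n = 3) and points for the libraries, in chromosomal order. PCDHA1 went from 5.45% to 8.64% and PCDHA2 from 4.67% to 7.55%, while PCDHA5 went from 11.1% to 8.38% and PCDHA3 and PCDHA10 held the largest shares in both groups.

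A gene on the opposite strand runs through this stretch. ENSG00000279726, at chr5:140785698-140828549 and classed as antisense in GENCODE release 29, has exons that overlap exons of PCDHA1, PCDHA3, PCDHA5 and PCDHA6. Antisense RNAs that start inside alpha variable exons are known in neurons, where their transcription through a sense promoter goes with the loss of methylation there. ENSG00000279726 was at 6.42, 7.59 and 6.76 CPM in control and at 4.75, 4.79 and 4.995 CPM in OC2-OE, and was lower in every OC2-OE library than in any control. It was called lower with a log2 fold change of -0.51 ± 0.13 (SE, adjusted p = 0.00033, edgeR). The libraries were stranded and counted by strand, so reads of its strand were counted apart from those of PCDHA1, which rose, and of PCDHA5, which fell. How completely the strands were separated was not tested. ENSG00000279726 was singled out after its values were seen. The only other opposite-strand gene over alpha exons to pass the filter was ENSG00000278915, which overlaps PCDHA12. Its groups overlapped, and it was not called (-0.54 ± 0.41, adjusted p = 0.23, edgeR).

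In the beta cluster PCDHB2 held the largest share of the counts, 54.8% ± 4.75 in control and 68.1% ± 2.66 in OC2-OE (SD, n = 3). PCDHB2 was at 17.3, 15.96 and 18.6 CPM in control and at 22.4, 21.0 and 19.9 CPM in OC2-OE. The groups did not overlap, and PCDHB2 was called higher with a log2 fold change of 0.29 ± 0.08 (SE, adjusted p = 0.00036, edgeR) on 893 counts in control and 1157 in OC2-OE. The call did not hold with DESeq2 (adjusted p = 0.0061) or without control replicate 1 or 2 or OC2-OE replicate 1 or 2 (adjusted p = 0.0011 to 0.0091, edgeR). PCDHB5 fell from 3.37, 3.47 and 3.94 CPM to 2.30, 1.10 and 2.14 CPM. OC2-OE replicate 2 was the lowest, and without it the log2 fold change was -0.68 (adjusted p = 0.0029, edgeR) in place of -0.94 ± 0.20 (adjusted p = 2.3e-05). PCDHB13 went from 1.61, 2.27 and 2.46 CPM to 0.94, 0.92 and 0.99 CPM, on 108 counts in control and 52 in OC2-OE. Its log2 fold change of -1.14 ± 0.27 (SE, adjusted p = 0.00011, edgeR) was the largest fall among the called genes. This call was lost with DESeq2 (adjusted p = 0.0020) and without control replicate 2 or 3 (adjusted p = 0.0013 and 0.0022, edgeR).

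The other tested beta genes had between 66 and 116 counts over the 6 libraries. PCDHB8, whose 40-base promoter window is identical to that of PCDHB13 at 39 of 40 positions, was at 0.96, 1.61 and 1.54 CPM in control and at 0.89, 0.63 and 0.60 CPM in OC2-OE. It had no overlap between groups and was not called (-0.92 ± 0.32, adjusted p = 0.0076, edgeR). PCDHB14 was at 0.75, 1.67 and 1.72 CPM in control and at 0.89, 0.75 and 0.88 CPM in OC2-OE. Control replicate 1 was as low as the lowest OC2-OE library, and the gene was not called. PCDHB4 was the beta gene with the highest positive value, 0.73 ± 0.35 (SE, adjusted p = 0.053, edgeR), from 15, 8 and 10 counts in control and 21, 15 and 22 counts in OC2-OE, which did not overlap. PCDHB1, PCDHB6, PCDHB15, PCDHB16 and PCDHB11 were not called, and all but PCDHB11 overlapped between groups. The other 5 beta genes did not pass the filter. Of these, PCDHB9 had 2, 3 and 6 counts in control and 0, 1 and 0 in OC2-OE, and PCDHB12 had 2, 4 and 3 counts in control and 1, 0 and 0 in OC2-OE.

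In the gamma cluster PCDHGB1 rose and PCDHGB4 fell. PCDHGB1 was at 4.82, 2.75 and 4.80 CPM in control and at 6.11, 7.56 and 6.37 CPM in OC2-OE. The groups did not overlap, and control replicate 2 was the lowest of the 6 libraries. PCDHGB1 was called higher with 0.69 ± 0.15 (SE, adjusted p = 2.0e-05, edgeR), which without that library became 0.47 and was no longer called (adjusted p = 0.0045, edgeR). DESeq2 did not call it (adjusted p = 0.0012). PCDHGB4, the gamma gene with the highest CPM in control, went from 9.05, 9.02 and 7.81 CPM to 5.74, 5.60 and 4.995 CPM. All OC2-OE libraries were below the controls, and the log2 fold change was -0.67 ± 0.12 (adjusted p = 6.9e-07, edgeR), a call that held in every alternative fit at an adjusted p under 0.001 with no minimum fold, as did the calls of PCDHA1, PCDHA2, PCDHA5, PCDHA12 and PCDHAC1. In OC2-OE, PCDHGB1 had the higher CPM of the pair, where in control it had the lower.

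Several further gamma genes were lower in each OC2-OE library without passing the test. PCDHGA11 was at 3.59, 2.57 and 2.40 CPM in control and at 1.83, 1.67 and 1.98 CPM in OC2-OE (-0.65 ± 0.21, adjusted p = 0.0047, edgeR). PCDHGB7 was at 1.71, 2.63 and 2.46 CPM in control and at 0.99, 1.44 and 1.43 CPM in OC2-OE (-0.81 ± 0.25, adjusted p = 0.0025, edgeR). Neither gene overlapped between groups, and without control replicate 1 PCDHGB7 was called lower (edgeR). PCDHGB2 went from 16, 18 and 13 counts to 10, 8 and 7 counts, with an adjusted p of 0.018 (edgeR). PCDHGA1 was at 2.19, 2.15 and 3.01 CPM in control and at 2.56, 2.19 and 2.03 CPM in OC2-OE, and PCDHGC3, a C-type gene, at 1.34, 2.21 and 2.28 CPM and at 1.57, 1.39 and 1.59 CPM. Both overlapped between groups and were not called. PCDHGA1 had a log2 fold change of -0.11 ± 0.21, which turned to 0.06 without control replicate 3. PCDHGA4, PCDHGA6, PCDHGA7 and PCDHGB6 were not called either, and all overlapped between groups.

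The other 11 gamma genes did not pass the filter. PCDHGB5 had 13, 17 and 9 counts in control and 4, 4 and 8 counts in OC2-OE, without overlap and without a test, and shares its whole 40-base promoter window with PCDHGB4. PCDHGA12, PCDHGC5, PCDHGA3, PCDHGC4 and PCDHGA9 had at most 8 counts in either group. The 17 untested genes of the 3 clusters had between 0 and 55 summed counts. A pseudogene in the gamma cluster, PCDHGB8P, had 1, 2 and 2 counts in control and 0 in OC2-OE, and the beta pseudogenes PCDHB17P, PCDHB18P and PCDHB19P had 0, 1 and 0 counts in all libraries together.

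**Figure D4:**
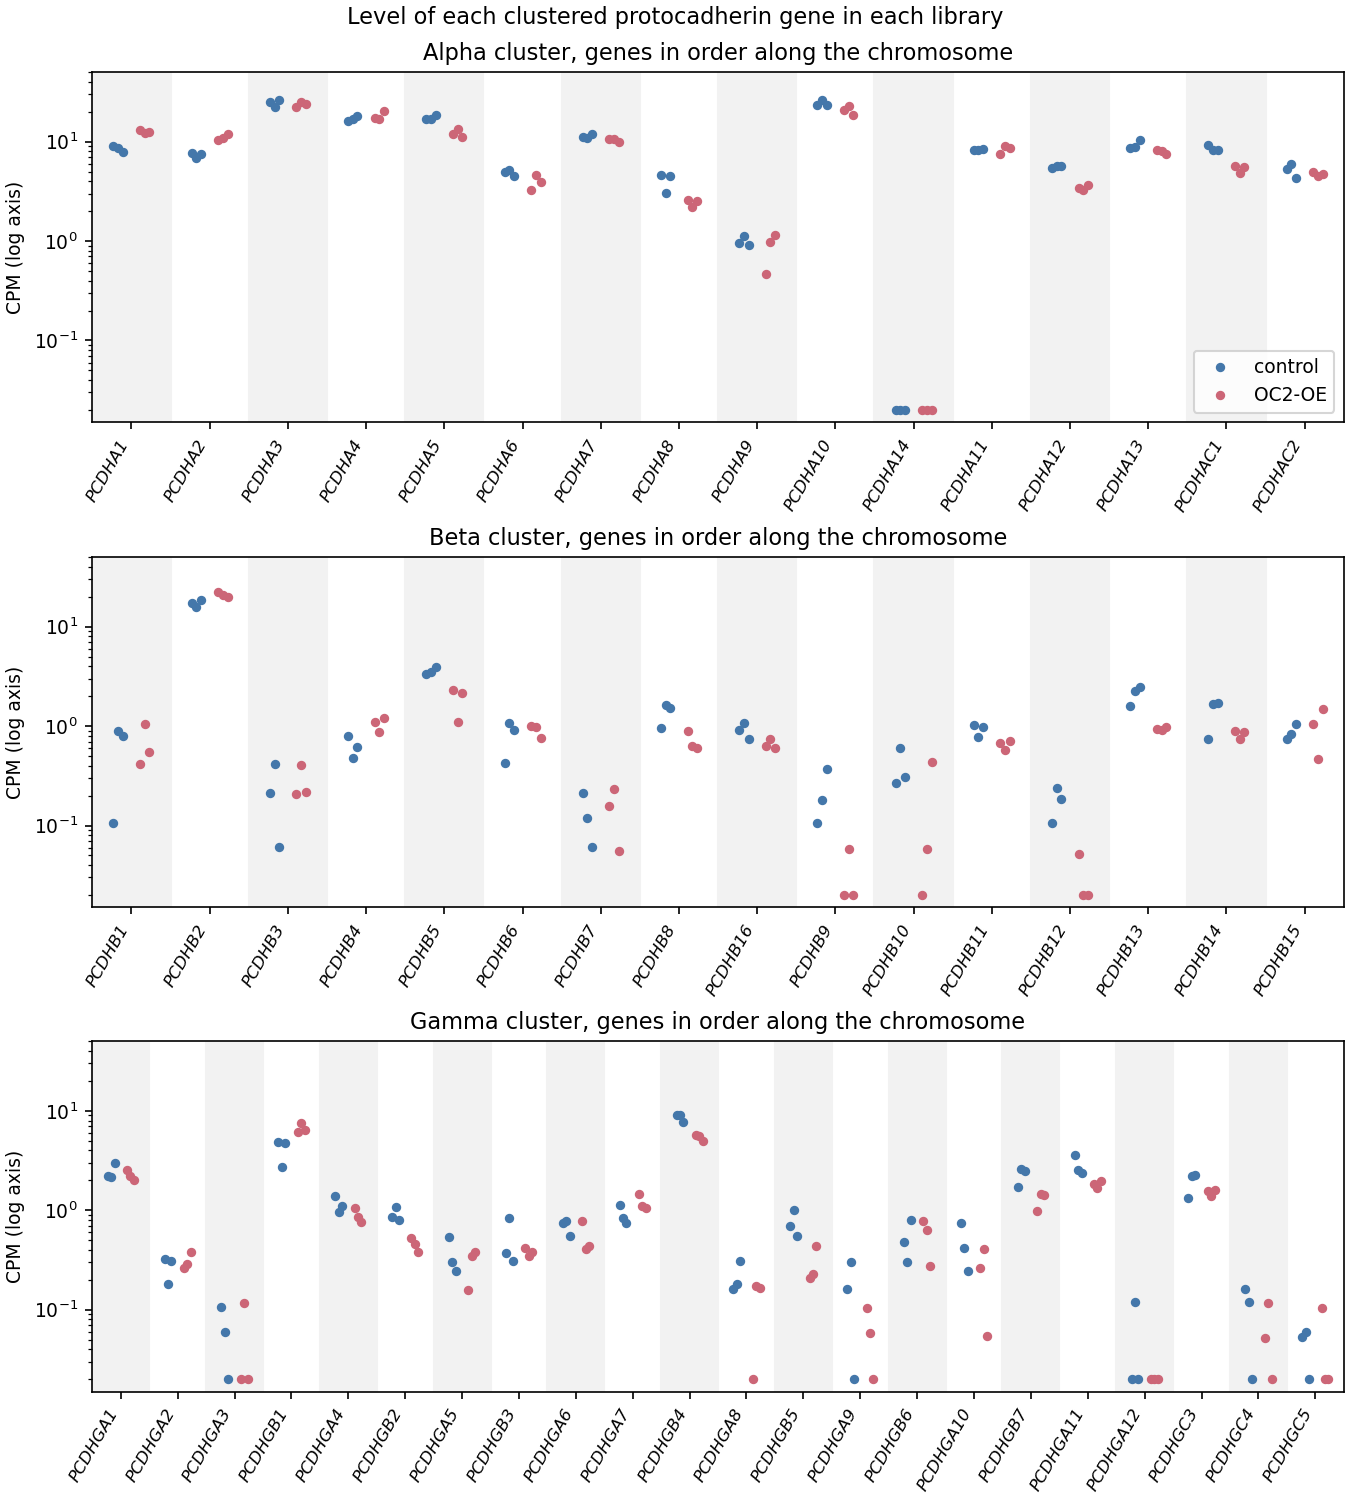
CPM of each of the 54 genes in each library on a log axis, by cluster and in chromosomal order, with blue points for control and red points for OC2-OE; values of 0 are drawn at the lower edge. Most alpha genes lie between 2.19 and 26.1 CPM, while PCDHB2 in the beta cluster and PCDHGB1 and PCDHGB4 in the gamma cluster have the highest mean CPM and many of their neighbours are under 1 CPM.

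To compare levels between genes, CPM were divided by the length of the bases a gene does not share. On this scale of CPM per kb, the levels in control were highest for PCDHA3 (6.09 ± 0.46, SD, n = 3), followed by PCDHB2 (4.22 ± 0.33), PCDHA5 (4.11 ± 0.25), PCDHA7 (3.88 ± 0.17), PCDHA13 (3.61 ± 0.40), PCDHGB4 (3.51 ± 0.29) and PCDHA1 (3.14 ± 0.22). From PCDHB2 to PCDHGB4 each gene lay within the sum of the SDs of its neighbour in this order. In OC2-OE, PCDHA3 was again highest (5.89 ± 0.35 CPM per kb), followed by PCDHB2 (5.15 ± 0.31), PCDHA1 (4.61 ± 0.18), PCDHA2 (4.19 ± 0.30) and PCDHA7 (3.56 ± 0.12), with PCDHA5 at 2.87 ± 0.25. So PCDHA1 and PCDHA2 stood above PCDHA5 in OC2-OE and below it in control. Over all exon bases of each gene, which include the constant exons, PCDHB2 came first in control (4.22 CPM per kb) and PCDHA3 second (3.29). PCDHA4 and PCDHA10 have 10574 and 10355 bases of their own, since the annotation holds a long transcript of each, and their levels per kb (1.6 and 2.33) are lower for it.

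Among the 26 genes of chromosome architecture and silencing examined, 16 were lower, 4 were higher and 6 were not called in OC2-OE, where 28.7% of all genes tested were lower and 27.8% higher. The median log2 fold change of the list was -0.18, beside 0.01 over all genes tested. TET1, DNMT3B and REST had fewer summed counts than the median of 2133 of all genes tested, and the others had more. Small changes were among the calls, such as PDS5A at -0.12 ± 0.03 (SE). The part of this depth in the called share was not tested. CTCF, which binds the CGCT element, was at 95.7, 87.6 and 84.9 CPM in control and at 77.7, 71.0 and 70.4 CPM in OC2-OE. The groups did not overlap, and CTCF was called lower (-0.29 ± 0.04, SE, adjusted p = 8.8e-10, edgeR). Of the cohesin ring, RAD21 (-0.60 ± 0.02), SMC1A (-0.44 ± 0.02) and SMC3 (-0.36 ± 0.03) were called lower, as was the subunit STAG1 (-0.48 ± 0.05), whereas the alternative subunit STAG2 was not called (0.01 ± 0.03). Of the cohesin loader, NIPBL was called lower (-0.27 ± 0.04) and its partner MAU2 was not called (-0.03 ± 0.04, adjusted p = 0.60, edgeR). The farthest from 0 on this list were DNMT3B, a de novo DNA methyltransferase (-1.09 ± 0.09, adjusted p = 2.6e-20, edgeR), TET1, which oxidises methylated cytosine (-0.92 ± 0.13, adjusted p = 5.8e-10), and REST, a repressor of neuronal genes (0.72 ± 0.09, adjusted p = 5.8e-12). Of their relatives, DNMT1 was called lower (-0.63 ± 0.03) and DNMT3A was not called (0.11 ± 0.05), while TET2 was called higher (0.28 ± 0.07) and TET3 lower (-0.15 ± 0.04). SMCHD1, which takes part in silencing the clusters, was at 196 ± 4.09 CPM in control and 185 ± 1.16 CPM in OC2-OE and was not called (adjusted p = 0.0078, edgeR). CTCF, the cohesin genes, DNMT1, DNMT3A, TET2, TET3 and SMCHD1 were picked for their role, after their values were seen.

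The protocadherins outside the clusters are adhesion molecules encoded by separate genes. Of 11 examined, 8 were tested, 2 were higher and 3 were lower, which is near the 27.8% and 28.7% of all genes tested. PCDH8 went from 2.25, 2.75 and 2.15 CPM to 13.6, 13.9 and 14.1 CPM (2.54 ± 0.13, SE, adjusted p = 8.9e-37, edgeR), and PCDH7 from 0.80, 0.72 and 0.92 CPM to 4.54, 4.27 and 3.68 CPM (2.35 ± 0.23, adjusted p = 1.1e-16). PCDH11X had 93 counts in control and 19 in OC2-OE (-2.35 ± 0.35, adjusted p = 2.4e-09, edgeR). PCDH10 (-1.93) and PCDH19 (-0.90) were the other genes called lower.

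Of 19 genes for partners and processing of clustered protocadherins, 10 were higher, 3 were lower and 6 were not called, where 27.8% of all genes tested were higher and 28.7% lower. The median log2 fold change of the list was 0.20, beside 0.01 over all genes tested. PTK2B, APH1B and PSEN2 had fewer summed counts than the median of 2133 of all genes tested, and the others had more. The part of depth in the called share of this list was not tested either. RET, a receptor tyrosine kinase that can associate with these proteins, fell from 299 ± 6.77 CPM to 50.6 ± 1.34 CPM (-2.56 ± 0.03, SE, adjusted p = 1.0e-98, edgeR). PTK2B, a cytoplasmic kinase that the alpha and gamma tails bind, rose (1.10 ± 0.10, adjusted p = 2.1e-20, edgeR), as did APH1B, a subunit of the gamma-secretase that cuts the proteins at the membrane (1.04 ± 0.13, adjusted p = 1.9e-12).

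The genes around the clusters did not share one direction. Of 35 tested genes within 500 kb that are not clustered protocadherins, 14 were higher, 8 were lower and 13 were not called. The called share was near the 56.5% of all genes tested, of which 27.8% were higher and 28.7% lower, and the median log2 fold change was 0.23 beside 0.01. The farthest from 0 among those called were SLC4A9 (1.57 ± 0.42, SE, adjusted p = 0.00050, edgeR), TMCO6 (1.26 ± 0.11) and RELL2 (1.03 ± 0.04). TAF7, a general transcription factor gene between the beta and gamma clusters, was at 184 ± 1.04 CPM in control and 168 ± 1.57 CPM in OC2-OE and was called lower (-0.13 ± 0.03, adjusted p = 3.0e-05, edgeR). DIAPH1, next to the gamma cluster, was called higher (0.09 ± 0.02, adjusted p = 0.00060, edgeR).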

How the data were processed

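The 6 libraries were stranded poly(A) libraries. The authors aligned them with STAR version 2.7.9a, per the labels, and the deposited files hold raw read pair counts per gene from featureCounts version 1.6.0 (GENCODE release 42, GRCh38), counted by strand, with neither multi-mapped pairs nor pairs shared by genes kept. A symbol was found through the Ensembl identifier of 62672 of the 62696 genes.

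Counts were tested in R version 4.3.3 with edgeR version 4.0.16: filterByExpr, TMM, robust quasi-likelihood test, no replicate term, Benjamini-Hochberg adjustment over the 17307 genes tested and a threshold of 0.001. The common coefficient of variation was 2.2%. Standard errors (SE) were derived from the log2 fold change and its F statistic. CPM use TMM-scaled library sizes. The scripts were tested on simulated data.

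Values per library were given for the 24 tested members with the highest mean CPM, statistics for called members (up to 8 per cluster) and the 3 with the highest CPM per cluster, and from each other list the 3 called genes with the largest absolute fold change; genes outside this rule are said to be so or stand as description. Members and lists were chosen with earlier results of these data known. A figure legend of the study calls the replicates independent RNA-Seq experiments, and whether each had its own transduction is not stated. Libraries of a group differed by more than sampling noise (variance 1.32 to 2.06 times that of sampling), which does not settle this. Alternatives were other scalings, DESeq2 version 1.42.0, limma voom version 3.58.1, other filters and thresholds, leaving out ONECUT2 or each library, and a replicate block. Intervals of counting error are not given, and p-values cover only the spread between these libraries.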

Additional observations from a re-analysis of the deposited data

How the results depend on the processing

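The 4 members called higher and 7 called lower kept these counts under every scaling, both other filters, without ONECUT2 and with a replicate block (4 and 7 calls, and 9642 genes in place of 9776). Same-numbered libraries of the groups did not deviate together (correlations of -0.004, 0.019 and 0.015), so the block was not used as the main design. With the DESeq2 Wald test 2 members were higher and 5 lower, with limma voom 4 and 6. At an adjusted p under 0.05, 4 members were higher and 13 lower, and with a minimum absolute log2 fold change of 1 as well as the adjusted p under 0.001, 0 were higher (edgeR; 4 without that minimum), 1 was lower and 2999 genes were called in all. Leaving out each library in turn gave 2 to 4 members higher, 5 to 7 lower and 8944 to 9340 genes called; without control replicate 2, 2 were higher. For 15 of the named members, 225 log2 fold changes under alternatives were compared with the main fit. Of these, 205 kept direction and call, 17 lost the call, 1 gained it and 2 changed sign. The 2 were PCDHA3 without OC2-OE replicate 1 and PCDHGA1 without control replicate 3, neither called in any fit. Their ranges without each library were -0.1105 to 0.0039 and -0.2037 to 0.0563. Outside these 15 members, PCDHGB7 gained a call without control replicate 1. The log2 ratio of the summed alpha level was -0.059 by library size only and -0.0668 by upper quartile, in place of -0.11, and -0.12 to -0.09 without each library (beta -0.09 to 0.03, gamma -0.29 to -0.22); these 2 scalings moved the median of all genes to 0.06 and 0.05. Most beta and gamma genes had under 120 counts in all; the part of depth in their calls and the cause of the lost calls were not tested.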
